A study of Mus musculus with 10 samples.

Results

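The integrin and laminin genes of mouse liver and of 2 kinds of c-MYC liver tumor were examined by RNA sequencing. Members were chosen by symbol alone, as every gene whose symbol starts with Itga followed by a digit or letter, with Itgb followed by a digit, or with Lama, Lamb or Lamc followed by a digit. This took 41 of the 16697 genes. Of these, 18 are integrin alpha subunits, 8 are integrin beta subunits and 11 are laminin chains (5 alpha, 3 beta and 3 gamma), which makes 37 subunits. The other 4 are no established subunit: Itgb2l resembles the leukocyte beta subunit Itgb2, Itgb1bp1 and Itgb1bp2 encode proteins that bind the tail of a beta subunit, and Itgb3bp encodes a centromere protein.

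Integrins are receptors made of 1 alpha and 1 beta subunit that tie the cytoskeleton to the matrix or to other cells, and the alpha subunit largely sets which ligand is bound. Laminins are trimers of an alpha, a beta and a gamma chain and form the sheet of basement membranes to which epithelial, muscle and endothelial cells attach. In normal liver, hepatocytes face the space of Disse without a continuous basement membrane, and laminins are best known from the bile ducts and vessels.

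There were 4 normal livers (NL, n = 4), 3 tumors with c-MYC alone (group c-MYC, n = 3) and 3 tumors with c-MYC plus FOXO1AAA (group c-MYC/FOXO1AAA, n = 3). All 10 libraries are labeled wild type, and no age is given. Tumors were made by hydrodynamic tail vein injection, which brings plasmids into hepatocytes, where the Sleeping Beauty transposase inserts them into the genome. The c-MYC tumors also received the empty vector pT3, and FOXO1AAA, a FOXO1 that AKT cannot inactivate, was expressed from the same backbone under the EF1α promoter. The question of the comparison between both kinds of tumor was what active FOXO1 does to the expression profile of c-MYC tumors. The sources disagree on 2 points. The strain is C57BL/6 in the characteristics of every library but FVB in the extraction text and in the methods, and 1 description of the control tumors adds the oncogene MCL1 to c-MYC while the others do not. The sources used here do not say that the normal livers received a vector, so that injection and tumor cannot be told apart in the comparisons with NL. The labels number the libraries without saying that each came from a separate mouse, and the p-values measure the spread between these libraries.

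The libraries held 13123643 to 20547630 reads in genes. Foxo1 was at 6.67 to 7.86 FPKM in NL, 5.16 to 6.45 in c-MYC and 70.1 to 95.6 in c-MYC/FOXO1AAA, without overlap between the last group and the others. FPKM are fragments scaled to the size of the library and the length of the gene. Levels below are FPKM with the prior count of the authors taken off, so that no read gives 0, and log2 fold changes are on the deposited scale, where the prior count understates the change of low genes. Replicates differed beyond counting noise in every pair, with a chi-square per gene of 11.4 to 41.4.

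The 6 hepatocyte markers (Alb, Ttr, Apoa1, Tat, Cps1 and Tdo2) were all called lower in both kinds of tumor than in NL, with summed levels of 73832 to 81601 FPKM in NL, 3141 to 4965 in c-MYC and 805 to 1457 in c-MYC/FOXO1AAA. Markers of the skeletal muscle lineage stood apart in the other direction. Myod1, Myog, Myf5 and Chrna1 had 0 reads in every NL and c-MYC library, Myh3 reached at most 0.00909 FPKM there, and the summed level of the list was 33.5 to 55.3 FPKM in c-MYC/FOXO1AAA. Pax7 was not among the genes analyzed here. In bulk tissue, fewer cells of a type and less RNA per cell cannot be told apart.

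Of the 41 members, 26 have at least 1 promoter in the RefSeq table for GRCm38.p6, with 29 entries in all, each covering 250 bases before and 50 after a start site. The entries shown are those of 4 members with large changes that are described below: Itga3 (the entry with 3 GC boxes of its 2 entries), Itga4 and Itga11, which all rose with FOXO1AAA, and Lama5, which rose in both kinds of tumor. Capitals mark a GC box, searched as GGGCGG or its reverse complement CCGCCC on either strand. The sequences run 5′ to 3′ on the strand of the gene, at chr11:95076665-95076964 (minus strand) for Itga3, chr2:79255176-79255475 (plus strand) for Itga4, chr9:62677605-62677904 (plus strand) for Itga11 and chr2:180225810-180226109 (minus strand) for Lama5.
Itga3: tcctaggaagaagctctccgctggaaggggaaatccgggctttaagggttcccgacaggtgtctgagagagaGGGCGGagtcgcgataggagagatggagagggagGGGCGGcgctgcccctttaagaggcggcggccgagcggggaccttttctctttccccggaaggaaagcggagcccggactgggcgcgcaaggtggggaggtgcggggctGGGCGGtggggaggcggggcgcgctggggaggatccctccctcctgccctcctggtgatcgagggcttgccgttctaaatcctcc
Itga4: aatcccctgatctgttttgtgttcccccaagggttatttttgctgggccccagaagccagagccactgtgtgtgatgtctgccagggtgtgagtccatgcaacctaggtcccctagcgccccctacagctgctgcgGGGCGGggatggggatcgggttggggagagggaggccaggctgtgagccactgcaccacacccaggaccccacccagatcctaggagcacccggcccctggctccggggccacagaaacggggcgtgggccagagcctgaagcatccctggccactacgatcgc
Itga11: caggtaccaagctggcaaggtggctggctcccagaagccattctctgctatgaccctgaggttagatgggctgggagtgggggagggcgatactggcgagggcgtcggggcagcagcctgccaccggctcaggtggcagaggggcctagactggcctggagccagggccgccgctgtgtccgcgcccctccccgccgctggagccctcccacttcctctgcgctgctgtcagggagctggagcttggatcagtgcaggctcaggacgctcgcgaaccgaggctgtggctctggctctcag
Lama5: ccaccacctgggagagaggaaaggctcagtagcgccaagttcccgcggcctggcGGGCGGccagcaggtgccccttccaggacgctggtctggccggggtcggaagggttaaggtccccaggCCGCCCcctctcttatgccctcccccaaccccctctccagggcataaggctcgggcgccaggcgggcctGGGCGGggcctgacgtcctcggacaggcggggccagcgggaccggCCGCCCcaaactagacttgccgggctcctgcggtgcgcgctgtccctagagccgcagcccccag

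The Itga3 window holds 3 GC boxes, that of Itga4 holds 1, that of Lama5 holds 4 and that of Itga11 holds 0. All 4 windows are rich in G and C, with 66.7% for Itga3, 64.3% for Itga4, 68.0% for Itga11 and 72.7% for Lama5, against a median of 52.7% over all 32851 promoters. A GC box was found in 12 of the 29 member entries (41.4%) and in 35.7% of all promoters. The forkhead motif GTAAACA (reverse complement TGTTTAC), which FOXO factors bind, was found in 0 of the 29 entries and in 3.65% of all promoters. The E-box CACGTG, which MYC with MAX binds and which is its own reverse complement, was likewise found in 0 of the 29 and in 7.15% of all promoters. These counts describe the letters in these windows and nothing beyond them. GGGCGG does not overlap the other motifs.

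The main test, treat in limma, asked for a change above 1.5-fold at a Benjamini-Hochberg adjusted p under 0.05, adjusted over the 14017 genes with at least 1 FPKM as deposited in at least 3 libraries. This filter kept 28 members, namely 19 integrin subunits, 7 laminin chains, Itgb1bp1 and Itgb3bp, and left out 13. Of the 28, 6 passed it through a single group, and since they were high only there the counts that follow are a description: Itga4, Itga11, Itgb3 and Itgb4 through c-MYC/FOXO1AAA, Lama3 through NL and Itgad through c-MYC. In c-MYC versus NL, 8 of the 28 rose and 7 fell, while 48.1% of all tested genes were called (24.5% higher, 23.6% lower). In c-MYC/FOXO1AAA versus c-MYC, 11 rose and 7 fell, while 28.7% of all tested genes were called (15.9% higher, 12.7% lower). In c-MYC/FOXO1AAA versus NL, 10 rose and 6 fell, against 57.8% of all tested genes (31.2% higher, 26.6% lower). The share of the 28 members called was therefore 53.6%, 64.3% and 57.1% in this order. The groups did not overlap for 21, 22 and 23 of the 28 members, and for 73.9%, 63.4% and 80.1% of all tested genes. Any 2 of these contrasts share a group of libraries, so their values are given side by side and were not correlated.

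Without the filter, where all 41 members were fitted beside 16697 genes, 9 rose and 8 fell in c-MYC versus NL (44.8% of all genes called, 22.5% higher and 22.3% lower), 15 rose and 8 fell in c-MYC/FOXO1AAA versus c-MYC (28.8%, 17.2% higher and 11.6% lower), and 16 rose and 8 fell in c-MYC/FOXO1AAA versus NL (55.8%, 31.2% higher and 24.6% lower). The directions against NL depend on the scaling. The authors scaled NL libraries by factors of 0.6486 to 0.6838, c-MYC by 1.2561 to 1.2946 and c-MYC/FOXO1AAA by 1.4537 to 1.5021. With the same FPKM total in every library instead, the median log2 fold change of all tested genes moved from 0.08 to 1.011 in c-MYC versus NL, from 0.03 to 0.197 between the tumors and from 0.21 to 1.311 in c-MYC/FOXO1AAA versus NL, and the members split into 12 higher and 5 lower, 12 and 6, and 18 and 4. At that scaling 50.4% of all tested genes were higher and 13.5% lower in the first contrast, 18.5% and 10.6% in the second, and 58.0% and 15.0% in the third.

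**Figure D1:**
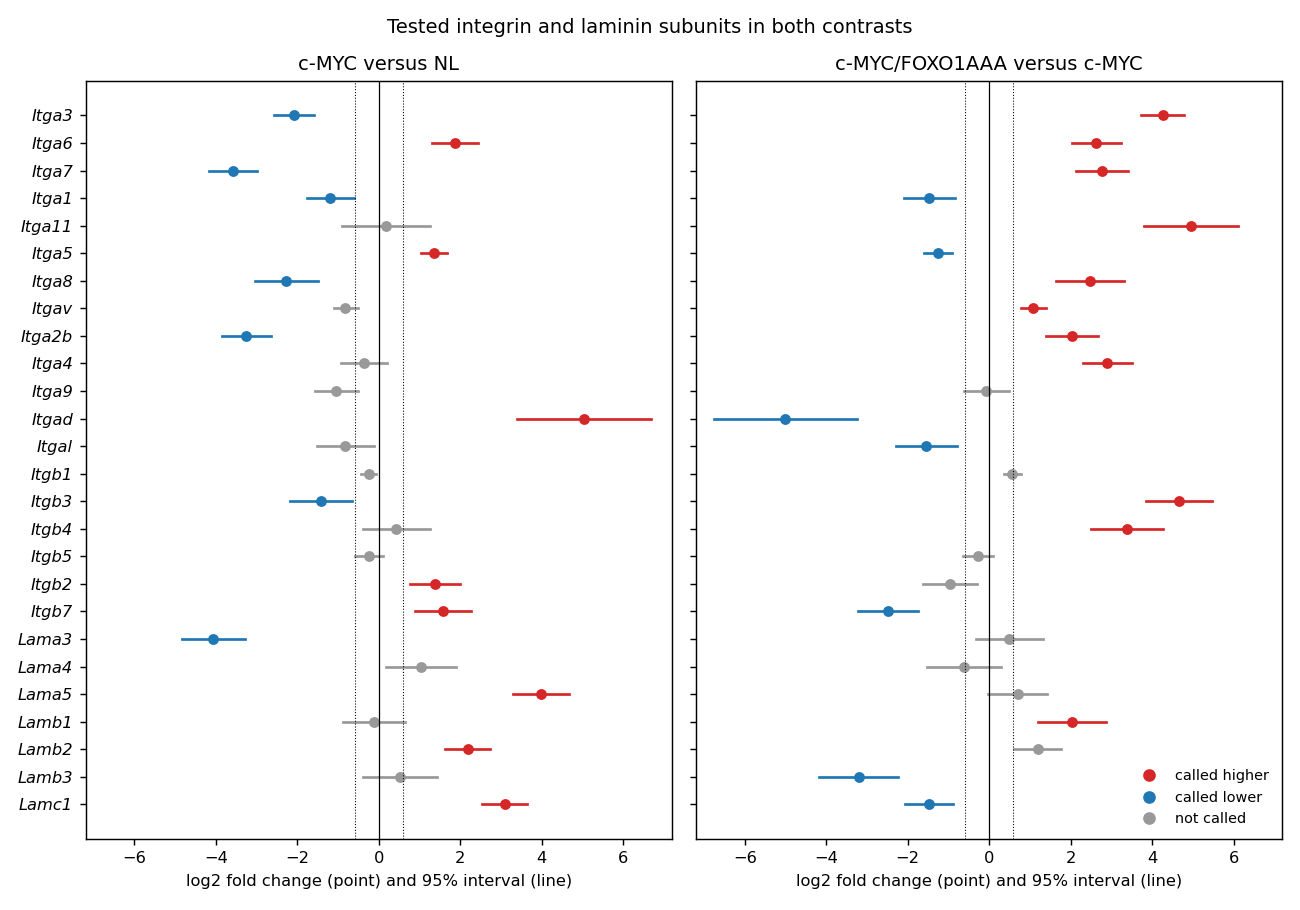
Log2 fold changes of the 26 tested subunits (points) with 95% intervals (lines) in c-MYC versus NL (left) and c-MYC/FOXO1AAA versus c-MYC (right); dotted lines mark 1.5-fold. Itga3, Itga7, Itga8, Itga2b and Itgb3 lie left of 0 in the first panel and right of it in the second, while Itga5, Itgad, Itgb7 and Lamc1 do the opposite.

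Itga3, Itga6 and Itga7 encode the alpha subunits that bind laminin, each in a pair with the product of Itgb1, and Itga6 also pairs with Itgb4 in the hemidesmosomes of epithelia. All 3 alpha subunits and Itgb4 rose in c-MYC/FOXO1AAA tumors over c-MYC tumors. Itga3 stood at 2.85, 2.57, 2.70 and 2.66 FPKM in NL, at 0.493, 0.524 and 0.896 in c-MYC and at 14.2, 12.9 and 9.90 in c-MYC/FOXO1AAA. The 3 groups did not overlap, with c-MYC lowest and c-MYC/FOXO1AAA highest. Itga3 fell by 2.09 ± 0.22 on the log2 scale (SE) in c-MYC versus NL (adjusted p = 9.14e-05) and was 19.1-fold higher with FOXO1AAA than without (log2 fold change 4.26 ± 0.24, adjusted p = 5.01e-07). Against NL, the c-MYC/FOXO1AAA tumors were higher by 2.17 ± 0.22 (adjusted p = 4.47e-05).

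Itga6 was stepwise higher. It was at 0.370, 0.459, 0.320 and 0.295 FPKM in NL, at 1.31, 1.62 and 1.24 in c-MYC and at 10.7, 9.77 and 6.34 in c-MYC/FOXO1AAA, again with no overlap. The log2 fold change was 1.87 ± 0.25 in c-MYC versus NL (adjusted p = 0.000667) and 2.63 ± 0.27 in c-MYC/FOXO1AAA versus c-MYC (adjusted p = 7.55e-05). Itga7, the main laminin-binding alpha subunit of skeletal and smooth muscle, was at 2.56 to 4.18 FPKM in NL, at 0.217 to 0.366 in c-MYC and at 2.13, 2.30 and 1.56 in c-MYC/FOXO1AAA. It fell by 3.57 ± 0.27 (log2, SE) in c-MYC versus NL (adjusted p = 2.26e-06) and rose by 2.78 ± 0.29 in c-MYC/FOXO1AAA versus c-MYC (adjusted p = 6.94e-05). The c-MYC/FOXO1AAA libraries remained below all NL libraries, but the difference of -0.79 ± 0.27 did not pass the test (adjusted p = 0.337, 95% interval -1.39 to -0.20), and it changed sign at the same FPKM total (0.31), while it was called after quantile normalization (-1.25, adjusted p = 0.0284) and without a fold threshold (-0.79, adjusted p = 0.0181).

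As shares of the 3 laminin-binding alpha subunits, computed per library from FPKM at the length of the longest coding transcript, Itga7 made up 53.0% ± 5.11 (SD, n = 4) in NL. Itga6 made up the largest share in c-MYC, at 59.6% ± 7.92 (SD, n = 3), and Itga3 in c-MYC/FOXO1AAA, at 54.0% ± 2.07 (SD, n = 3). Their summed level was 5.57 to 7.19 FPKM in NL, 2.12 to 2.31 in c-MYC and 17.6 to 26.6 in c-MYC/FOXO1AAA. The leading subunit was the same in all libraries of a group, except that in NL 2 Itga3 (46.1%) was marginally ahead of Itga7 (45.9%). An exact permutation test cannot fall below 0.0571 with 4 against 3 libraries or 0.1 with 3 against 3, and none was run on shares.

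**Figure D2:**
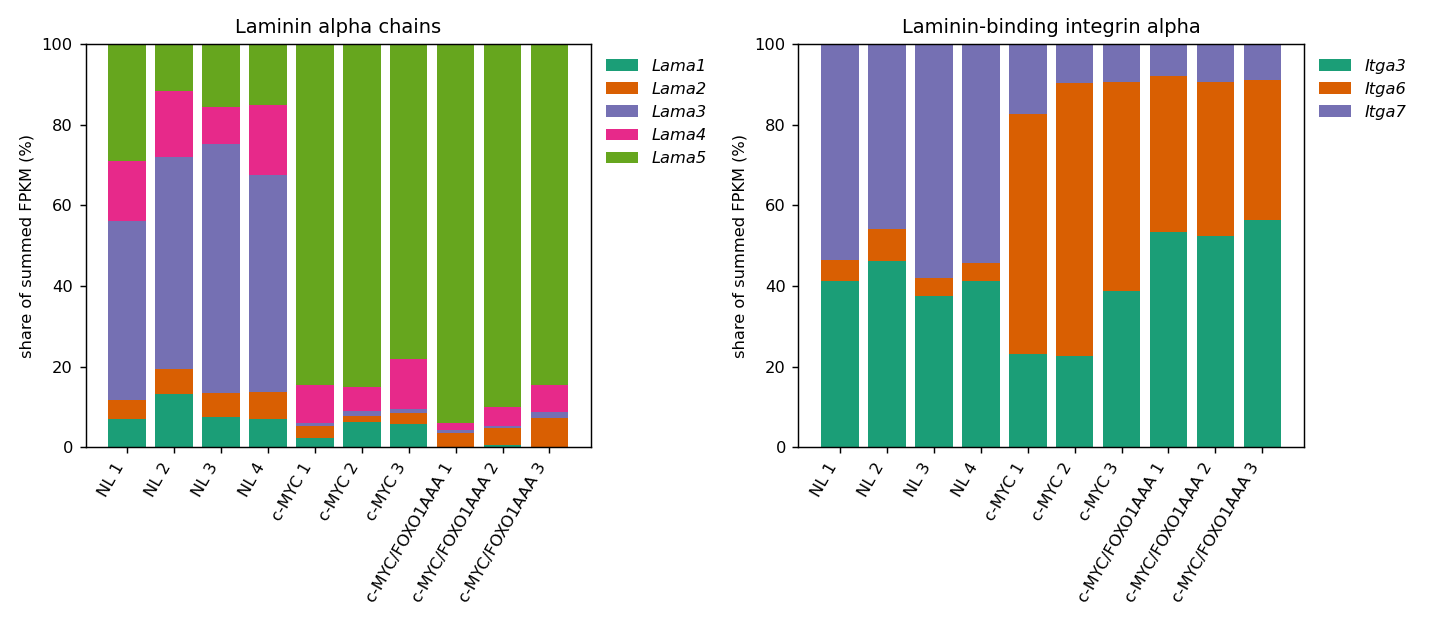
Shares of summed FPKM, in percent, of the 5 laminin alpha chains (left) and of the 3 laminin-binding integrin alpha subunits (right), 1 stacked bar per library, at the length of each gene's longest coding transcript. Lama5 takes 78.1% to 93.8% of the alpha chains in the 6 tumors and 11.9% to 28.9% in NL, and the largest alpha subunit passes from Itga7 to Itga6 to Itga3 over the 3 groups.

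Itgb4 was low outside the c-MYC/FOXO1AAA tumors. It had 8 to 22 reads per library in NL (0.133 to 0.398 FPKM), 25 to 35 in c-MYC (0.221 to 0.302 FPKM) and 571, 593 and 276 in c-MYC/FOXO1AAA (3.76, 3.22 and 2.28 FPKM). The log2 fold change was 3.39 ± 0.40 in c-MYC/FOXO1AAA versus c-MYC (adjusted p = 0.000127) and 3.81 ± 0.37 against NL (adjusted p = 9.76e-06). Between c-MYC and NL it was 0.43 ± 0.37, with overlapping groups (adjusted p = 0.927). Itgb1, the partner of most alpha subunits, was the most abundant member, at 47.1 to 50.8 FPKM in NL, 37.5 to 44.3 in c-MYC and 56.9 to 62.7 in c-MYC/FOXO1AAA. The groups did not overlap, yet none of the differences passed the 1.5-fold test. They were -0.25 (95% interval -0.44 to -0.06) in c-MYC versus NL, 0.56 (0.36 to 0.77) between the tumors and 0.31 (0.12 to 0.50) in c-MYC/FOXO1AAA versus NL, with an adjusted p of 1.0 in each. All 3 passed when no minimum fold change was asked for. At the same FPKM total the first turned to 0.68 and the last to 1.41, which passed the 1.5-fold test (adjusted p = 4.99e-06). After quantile normalization Itgb1 was called higher between the tumors (0.85, adjusted p = 0.0316) and with FOXO1AAA over NL (0.79, adjusted p = 0.0376).

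**Figure D3:**
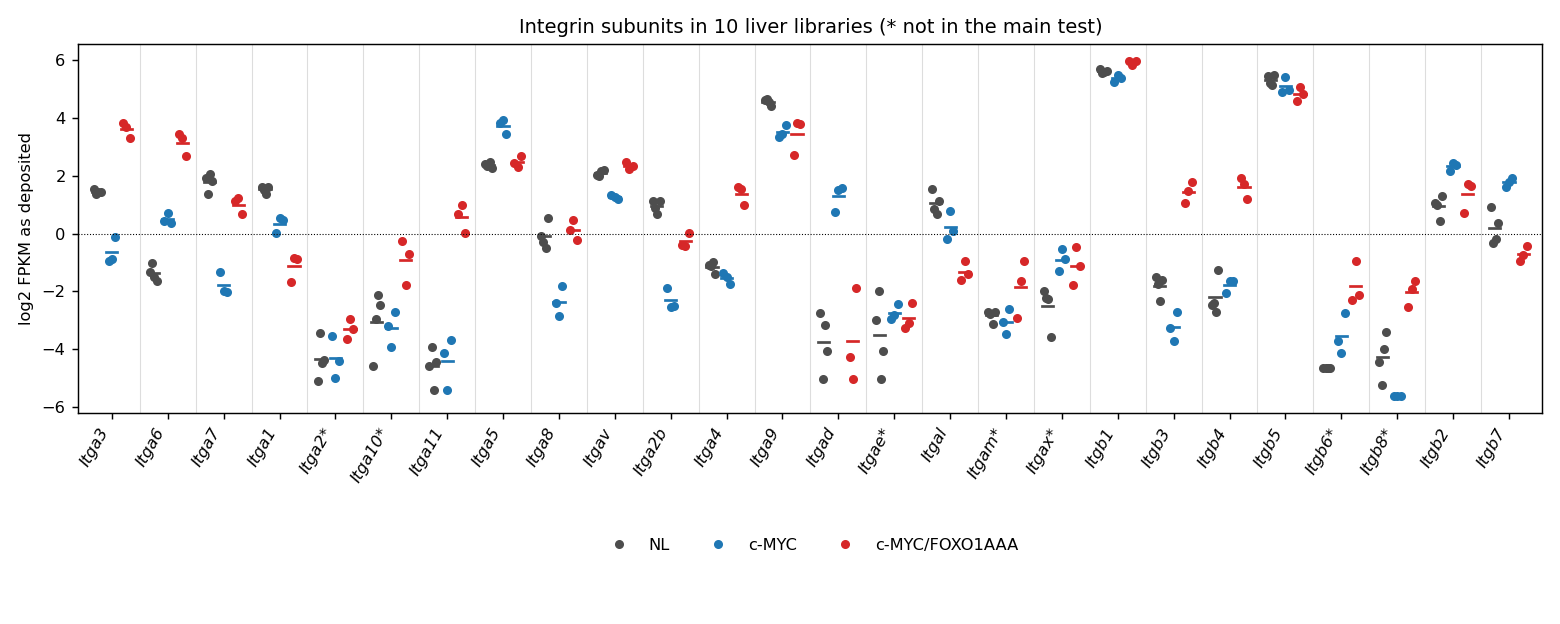
Log2 FPKM as deposited for the 26 integrin subunits; each dot is a library, short lines are group means, and the dotted line is 1 FPKM. Itgb1 and Itgb5 lie near the top in all groups, while Itga3, Itga6, Itga11, Itgb3 and Itgb4 are highest in the c-MYC/FOXO1AAA libraries and Itga5, Itgad and Itgb7 in the c-MYC libraries.

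Collagen receptors moved in both directions. Itga1, Itga2, Itga10 and Itga11 encode the alpha subunits that bind collagen, Itga1 mainly collagen of basement membranes and Itga11 fibrillar collagen. Itga11 had 0 to 2 reads in each NL library, 3, 0 and 5 in the c-MYC libraries and 192, 290 and 97 in the c-MYC/FOXO1AAA libraries (1.57, 1.95 and 0.995 FPKM). Its log2 fold change with FOXO1AAA was 4.96 ± 0.52 (SE) over c-MYC (adjusted p = 3.76e-05) and 5.14 ± 0.49 over NL (adjusted p = 5.72e-06). Itga1 went the other way, from 2.57 to 3.05 FPKM in NL over 0.994, 1.45 and 1.37 in c-MYC to 0.300, 0.546 and 0.535 in c-MYC/FOXO1AAA. The groups did not overlap. Itga1 fell by 1.19 ± 0.26 in c-MYC versus NL (adjusted p = 0.0465), by 1.47 ± 0.28 in c-MYC/FOXO1AAA versus c-MYC (adjusted p = 0.0196) and by 2.66 ± 0.26 in c-MYC/FOXO1AAA versus NL (adjusted p = 2.03e-05).

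All 6 markers of stellate cells and fibroblasts were tested. Their summed level was 78.3 to 101 FPKM in NL, 6.40 to 22.9 in c-MYC and 243 to 348 in c-MYC/FOXO1AAA, and 4 of the 6 (Dcn, Pdgfrb, Reln and Lum) rose in c-MYC/FOXO1AAA versus c-MYC. Against NL, 4 fell in c-MYC (Dcn, Lrat, Reln and Lum) and Col1a1 rose, while Itga11 was not called. None was at 0 in any group. Lrat, the vitamin A storing enzyme of quiescent stellate cells, was at 3.39 to 4.38 FPKM in NL and at 0.144 to 0.432 in c-MYC/FOXO1AAA. Of the 8 endothelial markers, 7 were tested, with 4 lower in c-MYC than in NL. Between the tumors only Cdh5, the cadherin of endothelium, was called. It rose with FOXO1AAA over c-MYC (log2 fold change 2.49, adjusted p = 0.000143), from 3.18 to 6.05 FPKM to 18.1 to 35.7. In c-MYC/FOXO1AAA versus NL, Cdh5 rose as well (2.45, adjusted p = 3.81e-05), while Kdr (-2.69), Stab2 (-3.89) and Clec4g (-5.9) fell. The summed level of the endothelial list was 78.9 to 99.0 FPKM in NL, 58.6 to 81.4 in c-MYC and 54.2 to 72.0 in c-MYC/FOXO1AAA. The part of these cells and of the muscle lineage in the integrin values was not tested.

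Itga5, Itga8, Itgav and Itga2b encode the alpha subunits that bind ligands with an RGD motif, such as fibronectin, vitronectin and fibrinogen. Itga5, the alpha subunit of the main fibronectin receptor, was the highest of these in c-MYC, at 14.0, 15.3 and 10.9 FPKM, against 5.29, 5.03, 5.49 and 4.83 in NL and 5.34, 4.90 and 6.38 in c-MYC/FOXO1AAA. The c-MYC libraries stood above all others, and the other 2 groups overlapped. It rose by 1.36 ± 0.14 (log2, SE) in c-MYC versus NL (adjusted p = 0.000493) and fell by 1.26 ± 0.15 in c-MYC/FOXO1AAA versus c-MYC (adjusted p = 0.00315). Itgav and Itga8 were lowest in c-MYC. Itgav was at 3.92 to 4.55 FPKM in NL, 2.25 to 2.53 in c-MYC and 4.67 to 5.58 in c-MYC/FOXO1AAA, and rose by 1.08 ± 0.14 between the tumors (adjusted p = 0.0119). The difference of -0.82 ± 0.13 in c-MYC versus NL did not pass (adjusted p = 0.111), and it was 0.11 at the same FPKM total. Itga8, found mainly on smooth muscle and other contractile mesenchymal cells, had 39 to 75 reads per library in NL, 18, 13 and 28 in c-MYC and 154, 234 and 95 in c-MYC/FOXO1AAA. It fell by 2.28 ± 0.35 in c-MYC versus NL (adjusted p = 0.000942) and rose by 2.48 ± 0.37 with FOXO1AAA (adjusted p = 0.00122), to 0.834 to 1.35 FPKM, all within the NL range of 0.688 to 1.44.

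Among the beta subunits that pair with Itgav, Itgb3, Itgb5, Itgb6 and Itgb8 followed different courses. Itgb3 had 21, 15, 10 and 16 reads in the NL libraries, 9, 6 and 14 in c-MYC and 296, 476 and 385 in c-MYC/FOXO1AAA, which is 2.08, 2.76 and 3.39 FPKM in the last group. Its rise by 4.67 ± 0.36 (log2, SE) in c-MYC/FOXO1AAA versus c-MYC (adjusted p = 4.52e-06) was the largest of any beta subunit in the main test. Against NL the rise was 3.24 ± 0.34 (adjusted p = 2.13e-05). In c-MYC versus NL, Itgb3 fell by 1.42 ± 0.34 (adjusted p = 0.0344). Itgb5 was at 35.3 to 44.5 FPKM in NL, 29.4, 42 and 31.3 in c-MYC and 23.7, 33.2 and 28.1 in c-MYC/FOXO1AAA, second only to Itgb1 among the beta subunits in each group. None of its differences passed, with -0.24 (95% interval -0.58 to 0.11), -0.27 (-0.64 to 0.10) and -0.50 (-0.85 to -0.16) in c-MYC versus NL, c-MYC/FOXO1AAA versus c-MYC and c-MYC/FOXO1AAA versus NL. At the same FPKM total the first and last turned to 0.69 and 0.59.

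Itga2b pairs with Itgb3 in the fibrinogen receptor of platelets. Both were lowest in c-MYC, but Itga2b was highest in NL and Itgb3 in c-MYC/FOXO1AAA. Itga2b stood in NL at 2.13, 1.82, 1.55 and 2.14 FPKM, against 0.238, 0.139 and 0.143 in c-MYC and 0.720, 0.711 and 0.979 in c-MYC/FOXO1AAA. It fell by 3.25 ± 0.27 (log2, SE) in c-MYC versus NL (adjusted p = 5.51e-06), rose by 2.03 ± 0.29 between the tumors (adjusted p = 0.00132) and fell by 1.22 ± 0.27 in c-MYC/FOXO1AAA versus NL (adjusted p = 0.0355). The 4 platelet markers, of which Pf4 alone was tested, summed to 2.71 to 3.71 FPKM in NL, 0.626 to 1.64 in c-MYC and 2.28 to 3.77 in c-MYC/FOXO1AAA. Most of the last sum was Pf4, with means of 1.33, 0.676 and 2.51 FPKM in this order. The others had lower means in c-MYC/FOXO1AAA than in NL. Ppbp was at 0.949, 0.234 and 0.281, Gp1ba at 0.282, 0.293 and 0.119, and Gp9 at 0.504, 0.0206 and 0.13. None of the 4 was at 0 throughout a group, and the part of platelets in the values of Itga2b and Itgb3 was not tested.

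Itga4 and Itga9 encode related alpha subunits that bind VCAM and other ligands. Itga4, best known from lymphocytes and migrating progenitor cells, was at 0.365 to 0.493 FPKM in NL, 0.290 to 0.379 in c-MYC and 3.05, 2.87 and 1.98 in c-MYC/FOXO1AAA. It rose with FOXO1AAA by 2.90 ± 0.27 over c-MYC (log2, SE; adjusted p = 3.39e-05) and by 2.53 ± 0.26 over NL (adjusted p = 2.65e-05). The c-MYC and NL libraries overlapped and differed by -0.37 ± 0.26 (adjusted p = 1.0; 0.56 at the same FPKM total). Itgb7, which pairs with Itga4 or Itgae on lymphocytes, took the opposite course. It was at 1.86, 0.751, 0.840 and 1.25 FPKM in NL, 3.03, 3.36 and 3.75 in c-MYC and 0.469, 0.549 and 0.703 in c-MYC/FOXO1AAA. It rose by 1.57 ± 0.31 in c-MYC versus NL (adjusted p = 0.0114) and fell by 2.48 ± 0.33 in c-MYC/FOXO1AAA versus c-MYC (adjusted p = 0.000566).

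The deposited level of Itga9 cannot be set beside that of other genes, because the authors scaled it to a length of 650 bp, that of a processed transcript, while the longest coding transcript has 7020 bp. At the latter length Itga9 was at 1.94 to 2.31 FPKM in NL, 0.916 to 1.23 in c-MYC and 0.595 to 1.28 in c-MYC/FOXO1AAA. Contrasts within a gene do not depend on its length. Itga9 fell by 1.11 ± 0.24 (log2, SE) in c-MYC/FOXO1AAA versus NL (adjusted p = 0.0440), and its difference of -1.04 ± 0.24 in c-MYC versus NL did not pass (adjusted p = 0.0812).

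Leukocyte integrins differed from each other as well. Itgal, Itgam, Itgax and Itgad lie close together on mouse chromosome 7 (Itgal at 127296260 to 127335138 and the other 3 between 128062640 and 128223816, GRCm38, GENCODE M21) and pair with Itgb2. How reads shared by these related genes were counted is not stated. Itgad, the subunit of some tissue macrophages, had 5, 0, 3 and 1 reads in NL, 116, 204 and 210 in c-MYC (1.64, 2.82 and 2.97 FPKM) and 2, 0 and 18 in c-MYC/FOXO1AAA. It was high in c-MYC alone, by 5.03 ± 0.74 (log2, SE) over NL (adjusted p = 0.000250), and fell by 5.01 ± 0.79 in c-MYC/FOXO1AAA versus c-MYC (adjusted p = 0.000737). Without c-MYC/FOXO1AAA 2 the last value was -4.36 and without c-MYC/FOXO1AAA 3 it was -5.92. Itgal, of lymphocytes, was at 1.56 to 2.89 FPKM in NL, 0.854 to 1.69 in c-MYC and 0.304 to 0.487 in c-MYC/FOXO1AAA. It fell by 2.37 ± 0.32 in c-MYC/FOXO1AAA versus NL (adjusted p = 0.000250) and by 1.55 ± 0.34 versus c-MYC (adjusted p = 0.0311).

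Itgb2, the common leukocyte beta subunit, was at 1.31 to 2.44 FPKM in NL, 4.40, 5.38 and 5.17 in c-MYC and 1.61, 3.20 and 3.11 in c-MYC/FOXO1AAA. It rose by 1.38 ± 0.28 (log2, SE) in c-MYC versus NL (adjusted p = 0.0182), and the difference of -0.97 ± 0.30 between the tumors did not pass (adjusted p = 0.301, 95% interval -1.62 to -0.31), although their libraries did not overlap. Itgae, Itgam and Itgax stayed at 0.695 FPKM or less in every library and were not in the main test. Of the 5 pan-leukocyte markers, all tested, Laptm5 and Cd53 rose and Lcp1 fell in c-MYC versus NL. Their summed level was 36.4 to 45.4 FPKM in NL, 31.6 to 40.2 in c-MYC and 17.6 to 31.2 in c-MYC/FOXO1AAA. Lcp1 was the largest part of it in NL, with means of 26.7, 8.74 and 7.37 FPKM in this order. The others had higher means in c-MYC than in NL. Laptm5 was at 4.85, 15.8 and 6.34, Cd53 at 2.46, 5.08 and 3.59, Coro1a at 4.8, 5.3 and 6.89, and Ptprc at 1.24, 1.83 and 1.01. Between the tumors only Laptm5 was called, and it fell (-1.34, adjusted p = 0.0465). The 6 macrophage and Kupffer cell markers summed to 194 to 342, 95 to 136 and 45.6 to 77.9 FPKM in this order. Clec4f alone had means of 208, 4.47 and 17.9 FPKM, and Cd68 of 6.93, 34.4 and 23.2. In c-MYC versus NL, Cd68 rose and Clec4f and Vsig4 fell. In c-MYC/FOXO1AAA versus NL, Cd68 rose and Clec4f, Csf1r, Vsig4 and Cd5l fell. Of the T and NK cell markers, Cd3e and Cd8a were not among the genes analyzed here and the other 3 summed to 1.62 to 3.44, 1.16 to 2.17 and 0.469 to 0.828 FPKM. The part of leukocyte numbers in these integrin values was not tested.

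At the longest coding length, the laminin alpha chain with the largest share of summed FPKM differed between liver and tumor. Lama5 encodes the alpha chain that is widespread in adult basement membranes, and Lama3 that of the laminin below stratified epithelia and other epithelia. Lama5 had 131, 40, 55 and 46 reads in the NL libraries (1.04, 0.372, 0.495 and 0.450 FPKM), 1743, 1917 and 1856 in c-MYC (8.34, 8.93 and 8.87 FPKM) and 4703, 5148 and 2499 in c-MYC/FOXO1AAA (16.8, 15.1 and 11.2 FPKM). Every tumor was above every normal liver. The log2 fold change was 3.98 ± 0.31 (SE) in c-MYC versus NL (adjusted p = 2.37e-06) and 4.68 ± 0.31 in c-MYC/FOXO1AAA versus NL (adjusted p = 3.41e-07). Between the tumors it was 0.70 (95% interval -0.02 to 1.42), which did not pass (adjusted p = 0.794).

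Lama3 stood the other way round, at 1.60, 1.64, 1.94 and 1.60 FPKM in NL, 0.0620, 0.111 and 0.108 in c-MYC and 0.150, 0.0762 and 0.198 in c-MYC/FOXO1AAA. It fell by 4.06 ± 0.35 (log2, SE) in c-MYC versus NL (adjusted p = 5.17e-06) and by 3.57 ± 0.35 in c-MYC/FOXO1AAA versus NL (adjusted p = 1.06e-05). The 2 kinds of tumor overlapped and differed by 0.49 ± 0.37 (adjusted p = 1.0; -0.48 after quantile normalization). As a share of the 5 alpha chains at the longest coding length, Lama3 took 53.0% ± 7.02 of the NL total, where Lama5 took 17.9% ± 7.5 (SD, n = 4). In c-MYC tumors the shares were 0.879% ± 0.224 for Lama3 and 82.6% ± 3.88 for Lama5, and with FOXO1AAA they were 0.929% ± 0.526 and 89.5% ± 4.65 (SD, n = 3 each). The summed level of the alpha chains was 2.97 to 3.60 FPKM in NL, 9.87 to 11.4 in c-MYC and 13.2 to 17.9 in c-MYC/FOXO1AAA.

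Lama4, the alpha chain of vessel walls, was called in no contrast of the main test. Scaled to the same FPKM total, it was called against NL in c-MYC (1.96, adjusted p = 0.00320) and in c-MYC/FOXO1AAA (1.51, adjusted p = 0.0206). Its deposited values rest on a length of 944 bp, that of a transcript with a retained intron, against 6046 bp for its longest coding transcript. At the latter length it was at 0.288 to 0.539 FPKM in NL, 0.623 to 1.41 in c-MYC and 0.315 to 0.877 in c-MYC/FOXO1AAA. Every c-MYC library was above every NL library. At the deposited length, at 1.85 to 3.45 FPKM, it would have stood above Lama3 in NL 1, NL 2 and NL 4.

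**Figure D4:**
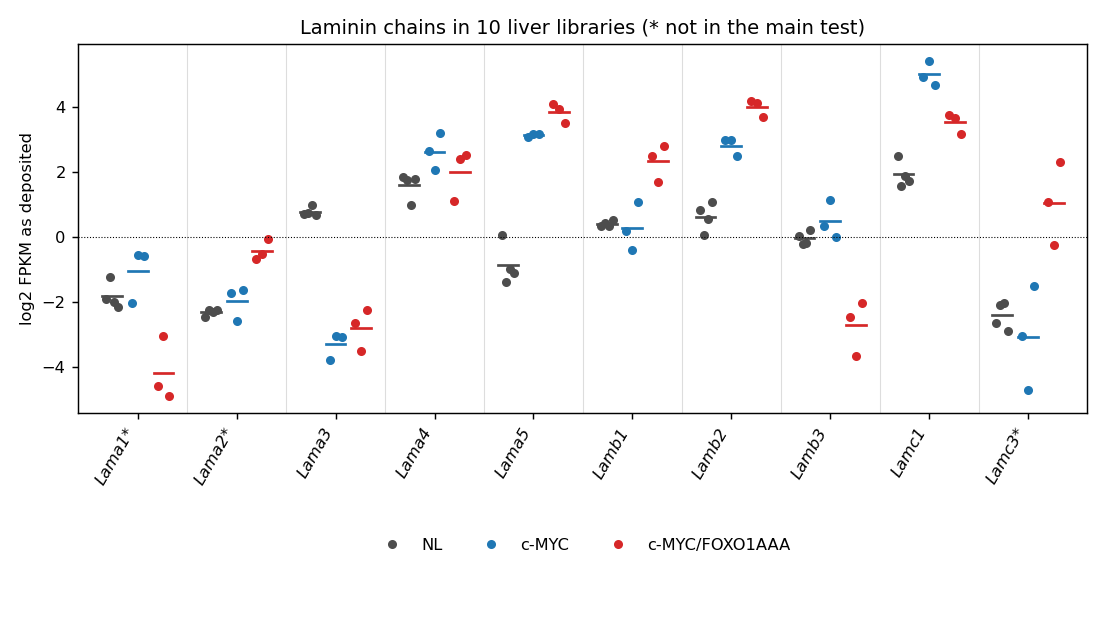
Log2 FPKM as deposited for laminin alpha, beta and gamma chains; each dot is a library, short lines are group means, and the dotted line is 1 FPKM. Lama5 and Lamb2 lie above the NL libraries in both kinds of tumor, Lama3 lies below them, and Lamb3 and Lama1 are lowest in c-MYC/FOXO1AAA.

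Of the laminin beta chains, Lamb2 rose in tumors and Lamb3 fell with FOXO1AAA. Lamb2, which replaces Lamb1 in the basement membranes of muscle, nerve and kidney filter, was at 1.77, 1.02, 1.44 and 2.08 FPKM in NL, 7.78, 7.83 and 5.53 in c-MYC and 18.1, 17.1 and 12.9 in c-MYC/FOXO1AAA. The groups did not overlap. The log2 fold change was 2.18 ± 0.24 (SE) in c-MYC versus NL (adjusted p = 0.000118) and 3.36 ± 0.24 in c-MYC/FOXO1AAA versus NL (adjusted p = 1.13e-06). Between the tumors it was 1.19 ± 0.26 (95% interval 0.61 to 1.77), just outside the threshold (adjusted p = 0.0710).

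Lamb1, the most widespread beta chain, was at 1.24 to 1.40 FPKM in NL, 1.12, 0.735 and 2.08 in c-MYC and 5.62, 3.21 and 6.86 in c-MYC/FOXO1AAA. It rose by 2.04 ± 0.37 (log2, SE) in c-MYC/FOXO1AAA versus c-MYC (adjusted p = 0.00626) and by 1.92 ± 0.35 versus NL (adjusted p = 0.00325). In c-MYC versus NL its difference of -0.12 ± 0.35 had no stable sign (0.22 without c-MYC 2 and 0.81 at the same FPKM total). Lamb3, a partner of Lama3 in the laminin of epithelial anchoring, was at 0.828 to 1.15 FPKM in NL, 1.24, 2.16 and 0.973 in c-MYC and 0.158, 0.0550 and 0.220 in c-MYC/FOXO1AAA. It fell by 3.20 ± 0.44 in c-MYC/FOXO1AAA versus c-MYC (adjusted p = 0.000413) and by 2.67 ± 0.41 versus NL (adjusted p = 0.000523). Of the beta chains it made up 25.3% ± 0.857 in the 4 normal livers, 14.6% ± 4.83 in the 3 tumors of c-MYC alone and 0.685% ± 0.422 in the 3 with FOXO1AAA (SD). Of the 5 biliary markers, 3 were tested and Cftr was not among the genes analyzed here. They summed to 2.17 to 4.43 FPKM in NL, 15.2 to 30.6 in c-MYC and 4.53 to 11.7 in c-MYC/FOXO1AAA, and none of the other 4 was at 0 throughout a group. Krt7 and Epcam rose in c-MYC versus NL, and Epcam fell and Krt19 rose with FOXO1AAA over c-MYC. Krt19 and Sox9 had lower means in c-MYC than in NL. Krt19 was at 1.05, 0.253 and 4.25 FPKM in NL, c-MYC and c-MYC/FOXO1AAA (means), and Sox9 at 0.647, 0.0262 and 0.747. The difference of Krt19 in c-MYC versus NL did not pass (-2.09, adjusted p = 0.0649), and Sox9 was not tested. The part of biliary cells in the laminin values was not tested.

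Lamc1, the gamma chain of most laminins, was the most abundant laminin chain in NL and in c-MYC. It was at 5.63, 2.95, 3.68 and 3.28 FPKM in NL, 30.4, 42.5 and 25.6 in c-MYC and 13.5, 12.6 and 8.96 in c-MYC/FOXO1AAA. The groups did not overlap, with c-MYC highest. Lamc1 rose by 3.09 ± 0.25 (log2, SE) in c-MYC versus NL (adjusted p = 4.91e-06) and fell by 1.48 ± 0.26 in c-MYC/FOXO1AAA versus c-MYC (adjusted p = 0.0137), which left it higher than NL by 1.61 ± 0.25 (adjusted p = 0.00210). In c-MYC, Lamc1 alone exceeded the sum of the alpha chains, which was 9.87 to 11.4 FPKM, while with FOXO1AAA it was below that sum of 13.2 to 17.9 FPKM in each library. The beta chains summed to 8.5 to 10.7 FPKM in c-MYC and 19.7 to 23.7 in c-MYC/FOXO1AAA.

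The 13 members below the filter included Itga2, Itga10, Itgae, Itgam, Itgax, Itgb6, Itgb8, Itgb2l, Itgb1bp2, Lama1, Lama2 and Lamc3. They were fitted once without the filter, which is the only fit of all libraries that holds them. Lamc3, a gamma chain of peripheral nerve and some epithelia, had 9, 12, 13 and 6 reads in NL, 11, 2 and 36 in c-MYC and 301, 144 and 568 in c-MYC/FOXO1AAA, where it ranged from 0.821 to 4.93 FPKM. It rose by 4.12 ± 0.79 (log2, SE) in c-MYC/FOXO1AAA versus c-MYC (adjusted p = 0.00278) and by 3.46 ± 0.74 versus NL (adjusted p = 0.00318). The first value lay between 3.31 without c-MYC 2 and 4.91 without c-MYC 3, and the second between 2.82 without c-MYC/FOXO1AAA 3 and 4.10 without c-MYC/FOXO1AAA 2.

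Itgb8 and Itgb6 pair with Itgav in receptors that activate latent TGF-beta. Itgb8 had 3, 1, 4 and 6 reads in NL, 1 in each c-MYC library and 33, 63 and 51 in c-MYC/FOXO1AAA (0.159, 0.251 and 0.309 FPKM). The ratio of c-MYC/FOXO1AAA to c-MYC was 36.7 (95% exact counting interval 12.3 to 180) and it rose by 3.58 ± 0.47 on the log2 scale (SE; adjusted p = 0.000218). Itgb6 had 0 reads in all NL libraries, 2, 1 and 6 in c-MYC and 12, 43 and 11 in c-MYC/FOXO1AAA, at least 11.6-fold higher than NL when NL is set to 3 reads over the group. Intervals and floors of this kind cover counting error only.

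Lama1, an alpha chain of embryonic basement membranes, fell by 3.12 ± 0.56 (log2, SE) in c-MYC/FOXO1AAA versus c-MYC (adjusted p = 0.00238), from 41, 121 and 115 reads to 7, 31 and 4. Lama2, the alpha chain of muscle and peripheral nerve, rose by 1.89 ± 0.32 in c-MYC/FOXO1AAA versus NL (adjusted p = 0.00227) and by 1.56 ± 0.34 versus c-MYC (adjusted p = 0.0308), with 0.608 to 0.944 FPKM in c-MYC/FOXO1AAA against 0.169 to 0.199 in NL. The call against c-MYC was lost without c-MYC 2 (1.25), without c-MYC/FOXO1AAA 2 (1.60) and without c-MYC/FOXO1AAA 3 (1.38). Itga10 rose by 2.35 ± 0.64 versus c-MYC (adjusted p = 0.0359) and by 2.12 ± 0.60 versus NL (adjusted p = 0.0262), with 100, 40 and 58 reads against at most 12. The former was lost without c-MYC 1 (2.39), c-MYC 2 (2.02), c-MYC/FOXO1AAA 1 (2.02) or c-MYC/FOXO1AAA 3 (2.24), and the latter without NL 1 (1.60), c-MYC/FOXO1AAA 1 (1.79) or c-MYC/FOXO1AAA 3 (2.01). Itga2, Itgae, Itgam and Itgax were called in no contrast.

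Among the members that are no subunit, Itgb1bp1 was at 8 to 8.91 FPKM in NL, 11 to 12.6 in c-MYC and 9.42 to 11.4 in c-MYC/FOXO1AAA and was called in no contrast of the main test. When scaled to the same FPKM total, it was called against NL in c-MYC (1.41, adjusted p = 1.4e-05) and in c-MYC/FOXO1AAA (1.36, adjusted p = 1.74e-05). Itgb3bp was at 0.795 to 1.17, 1.36 to 2.11 and 1.75 to 2.65 FPKM in this order, and its difference of 1.09 ± 0.25 (log2, SE) in c-MYC/FOXO1AAA versus NL lay just outside the threshold (adjusted p = 0.0551; past it without NL 3 at 1.18, without c-MYC/FOXO1AAA 1 at 1.22 and at the same FPKM total at 2.19). Itgb2l had 9 to 16 reads per library in NL, 0, 0 and 3 in c-MYC and 1 to 7 in c-MYC/FOXO1AAA. The ratio of NL to c-MYC was 24.1 (95% exact counting interval 7.79 to 121). Itgb1bp2, known as melusin of heart and skeletal muscle, had 1 read over all NL libraries, 4, 7 and 10 in c-MYC and 21, 11 and 18 in c-MYC/FOXO1AAA. The ratio of c-MYC to NL was 14.8 (2.38 to 613) and that of c-MYC/FOXO1AAA to NL was 26.5 (4.53 to 1065). Its call in c-MYC versus NL (1.81 ± 0.39, adjusted p = 0.0118) was lost without c-MYC 3 (1.57).

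Several calls near the threshold changed when 1 library was left out, for some members whichever of several libraries it was. In some fits the library left out was not in the contrast. The values in these fits are as follows. In c-MYC versus NL, the fall of Itga1 was called only in the fits without c-MYC 2 or without a c-MYC/FOXO1AAA library, and without any other library its value lay between -1.25 and -1.02. Itgb3 lost its call without NL 1 (-1.33), NL 2 (-1.41), NL 4 (-1.36), c-MYC 1 (-1.42) or c-MYC 2 (-1.18), and Itgb2 lost it without c-MYC 2 (1.32). Itga9 gained a call without c-MYC/FOXO1AAA 1, its value still at -1.04. In c-MYC/FOXO1AAA versus c-MYC, calls were lost for Itga1 without c-MYC 2 (-1.37), c-MYC 3 (-1.41) or c-MYC/FOXO1AAA 1 (-1.20), for Itgal without c-MYC 2 (-1.27), c-MYC/FOXO1AAA 1 (-1.41) or c-MYC/FOXO1AAA 3 (-1.50), for Lamc1 without c-MYC 2 (-1.28) or c-MYC/FOXO1AAA 3 (-1.30) and for Itgav without c-MYC/FOXO1AAA 1 (1.02). Without c-MYC 2, 4 members in place of 7 fell in this contrast, where 11.5% of all tested genes fell. Lamb2 gained a call without NL 2 (1.19) or c-MYC/FOXO1AAA 3 (1.34). In c-MYC/FOXO1AAA versus NL, Itga2b lost its call without NL 1 (-1.16), NL 2 (-1.24), NL 4 (-1.16), c-MYC/FOXO1AAA 1 (-1.15) or c-MYC/FOXO1AAA 2 (-1.14), and Itga9 lost it without NL 1 (-1.09), NL 2 (-1.08), NL 3 (-1.12), c-MYC 1 (-1.11), c-MYC 2 (-1.11) or c-MYC/FOXO1AAA 1 (-0.75).

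Scaling and pseudocount also decided some of the smaller changes. At the same FPKM total, where the median gene is higher in tumors, calls were lost in c-MYC versus NL for Itga1 (-0.26) and Itgb3 (-0.50), in c-MYC/FOXO1AAA versus NL for Itga2b (-0.12) and Itga9 (-0.01), and between the tumors for Itgal (-1.38). With a pseudocount of 1, which shrinks low genes, calls were lost in c-MYC versus NL for Itga1 (-0.77), Itga6 (0.80), Itga8 (-0.71) and Itgb3 (-0.22), between the tumors for Itga1 (-0.63), Itga2b (0.60), Itga8 (0.80), Itgal (-0.64) and Itgav (0.84), and in c-MYC/FOXO1AAA versus NL for Itga2b (-0.68), Itga9 (-1.04) and Lamb3 (-0.76). With voom on the recovered reads, added after the data were seen, Itgb3 in c-MYC versus NL lost its call (-1.61, adjusted p = 0.0894) and Lamb2 gained one between the tumors (1.19, adjusted p = 0.00758). Quantile normalization ended the calls of Itga1 (-1.12) and Itgb3 (-1.21) in c-MYC versus NL, of Itga2b (1.26) and Itgav (0.84) between the tumors and of Itga9 (-1.03) in c-MYC/FOXO1AAA versus NL. Lamb2 also gained a call between the tumors at the same FPKM total (1.36), with a pseudocount of 1 (1.08) and after quantile normalization (1.25). The rises of Itga3, Itga6 and Itga7 with FOXO1AAA over c-MYC, and those of Lama5, Lamb2 and Lamc1 in c-MYC over NL, were called under each of these 4 alternatives.

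Other genes of the pathway were read from 4 lists, of which up to 3 called genes per direction are named. Their medians are given beside 0.08, 0.03 and 0.21 over all tested genes in c-MYC versus NL, c-MYC/FOXO1AAA versus c-MYC and c-MYC/FOXO1AAA versus NL. Of 31 adhesome genes, which link integrins to actin and to kinases, 30 were tested. In this order 6 rose and 6 fell (median 0.10), 6 rose and 5 fell (median -0.02), and 6 rose and 8 fell (median 0.19). In c-MYC/FOXO1AAA versus c-MYC, Flna, Zyx and Actn1, which bind or crosslink actin, rose by 2.63 ± 0.16, 2.40 ± 0.21 and 1.72 ± 0.16 (log2, SE; adjusted p = 1.72e-06, 2.80e-05 and 0.000135), and Kank1, Parvg and Kank2 fell, with log2 fold changes of -1.94 ± 0.22, -1.56 ± 0.18 and -1.13 ± 0.17. In c-MYC versus NL, Fermt1, the kindlin of epithelia, rose by 3.81 ± 0.65, Parvg by 2.28 ± 0.17 and Actn4 by 1.16 ± 0.13. Lims2, an adaptor of integrin-linked kinase, fell by 5.18 ± 0.15 there, from 71.0 to 1.94 FPKM (means), and Tns2 (-2.72 ± 0.19) and Ptk2b (-2.44 ± 0.68) fell too. Ptk2b lost its call without c-MYC 1 (-1.73) or c-MYC 3 (-2.08) and was at -3.50 without c-MYC 2, and Kank2 lost its call without c-MYC 2 (-0.99) or c-MYC/FOXO1AAA 2 (-1.06). Fermt1 was at 4.61 without c-MYC 1 and at 3.15 without c-MYC 2.

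Of 19 other basement membrane genes, 12 were tested and Col4a3 was not among the genes analyzed here. In c-MYC versus NL, 5 rose and 2 fell (median 0.51), in c-MYC/FOXO1AAA versus c-MYC 3 rose and 4 fell (median 0.49), and in c-MYC/FOXO1AAA versus NL 7 rose and 1 fell (median 1.56). Col4a1 and Col4a2, which form the main collagen of basement membranes, rose by 3.39 ± 0.27 and 2.82 ± 0.28 (log2, SE) in c-MYC versus NL (adjusted p = 4.65e-06 and 3.31e-05), and Nid2, which links laminin to this collagen, rose by 3.23 ± 0.44. Col4a1 fell by 1.68 ± 0.29 in c-MYC/FOXO1AAA versus c-MYC, like Lamc1. Ntn4, a netrin that binds laminin gamma chains, rose by 4.46 ± 0.25 there, from 0.751 to 17.5 FPKM (means; adjusted p = 4.29e-07), and Nid1 rose by 1.31 ± 0.28. Col18a1 (-3.14 ± 0.31) and Agrn (-1.49 ± 0.17) fell. The call of Nid1 was lost without NL 2 or NL 3 (1.31 each), c-MYC 1 (1.05), c-MYC 2 (1.36), c-MYC/FOXO1AAA 1 (1.14) or c-MYC/FOXO1AAA 2 (1.28). Smoc2 and Col18a1 fell in c-MYC versus NL, with log2 fold changes of -2.36 ± 0.59 and -1.46 ± 0.29. Smoc2 lost its call without c-MYC 1 (-1.82) or c-MYC 2 (-2.09) and was at -3.19 without c-MYC 3, and Col18a1 lost its call without c-MYC 3 (-1.33). At the same FPKM total Ptk2b (-1.51), Smoc2 (-1.44) and Col18a1 (-0.53) were not called in c-MYC versus NL, nor Kank2 (-0.96) between the tumors.

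Of 21 integrin ligands and counter-receptors, 19 were tested and Madcam1 was not among the genes analyzed here. In the same order of contrasts, 6 rose and 8 fell (median -0.91), 8 rose and 8 fell (median 0.42), and 6 rose and 7 fell (median 0.25). Vcam1, a ligand of the Itga4 and Itga9 receptors, rose by 3.68 ± 0.41 (log2, SE) in c-MYC versus NL (adjusted p = 5.18e-05) and fell by 3.57 ± 0.44 with FOXO1AAA (adjusted p = 0.000202). Cdh1, the ligand of the Itgae receptor and the main epithelial cadherin, rose by 2.84 ± 0.42 and fell by 4.53 ± 0.45 in the same contrasts (-5.19 in the latter without c-MYC/FOXO1AAA 3). Mfge8, an RGD ligand, rose by 3.66 ± 0.23 in c-MYC versus NL. The matrix proteins Thbs1 and Spp1 and the membrane-bound Adam15 rose with FOXO1AAA by 6.40 ± 0.40, 4.11 ± 0.27 and 3.19 ± 0.29 (adjusted p = 8.64e-07, 1.92e-06 and 2.02e-05), and Spp1 had fallen by 3.73 ± 0.26 in c-MYC versus NL. The plasma ligands made by hepatocytes fell, Vtn by 2.37 ± 0.29 in c-MYC versus NL, Fga by 3.69 ± 0.32 between the tumors, and Fgg (-5.22 ± 0.30), Vtn (-4.98 ± 0.29) and Fgb (-4.92 ± 0.29) in c-MYC/FOXO1AAA versus NL. All 6 hepatocyte markers fell in both contrasts with NL, and between the tumors 3 of them fell (Ttr, Apoa1 and Cps1) and 2 rose (Tat and Tdo2). Npnt, a ligand of the Itga8 receptor, rose by 6.65 ± 0.53 in c-MYC/FOXO1AAA versus NL, from 0.0479 to 7.47 FPKM (means; adjusted p = 1.25e-06).

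Of 12 laminin receptors outside the integrins, 10 were tested, and in the same order 3 rose and 2 fell (median 0.87), 1 rose and 1 fell (median 0.21), and 5 rose and 3 fell (median 1.0). The syndecans Sdc4 and Sdc1 fell in c-MYC versus NL, with log2 fold changes of -1.92 ± 0.12 and -1.79 ± 0.12 (SE; adjusted p = 2.21e-06 and 5.89e-06). Rpsa, a ribosomal protein also named as laminin receptor, rose by 1.32 ± 0.14 in c-MYC versus NL, with the reserve that its many processed copies can share reads. Of the sarcoglycans, which complete the dystroglycan complex in muscle, Sgce rose by 1.82 ± 0.45 in c-MYC/FOXO1AAA versus NL (adjusted p = 0.0180). Utrn, also of this complex, rose by 1.37 ± 0.19 in that contrast (adjusted p = 0.00232) and was not called in the others. Dag1, which encodes dystroglycan, was called in no contrast. Further genes of this complex, below the level set for naming and picked after their values were seen, are Sgcb, Sgca and Dmd. Sgcb rose by 1.44 ± 0.28, 1.60 ± 0.30 and 3.04 ± 0.28 in the 3 contrasts (adjusted p = 0.0136, 0.0131 and 8.55e-06). Sgca was at 0 in every NL and c-MYC library and at 0.445 to 1.29 FPKM in c-MYC/FOXO1AAA. Dmd, which encodes dystrophin, had log2 fold changes of -2.97 ± 0.40 between the tumors (adjusted p = 0.000425) and -3.15 ± 0.38 in c-MYC/FOXO1AAA versus NL (adjusted p = 6.09e-05).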

How the data were processed

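RNA-seq was analyzed in 10 mouse liver and liver tumor libraries, grouped by their titles. The deposited values are log2 FPKM per gene, made by the authors from reads per Ensembl gene with a scaled prior count of 2 added before the logarithm; the submitters' processing notes name GRCm38 and FastQC 0.11.7, and the aligner, counter, annotation and strandedness are not given in the sources used here. The test had been planned for FPKM and was run on the deposited log2 values. Of 17069 rows, 372 without a symbol were left out. For 99.89% of genes a single solution gave whole reads in all libraries, from which reads, depths and FPKM without the prior were computed. Depths were 13123643 to 20547630 reads in genes, and intervals on reads (95%) cover counting error only.

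Contrasts were tested with treat of limma 3.58.1 (R 4.3.3, trend and robust on, all 10 libraries, 1.5-fold) over the 14017 genes with at least 1 FPKM in at least 3 libraries, and were called at a Benjamini-Hochberg adjusted p under 0.05. The code was tested on simulated data. Lengths and coordinates came from GENCODE M21 (GRCm38), promoters from RefSeq (GRCm38.p6). The members and lists were chosen with earlier results of these data known. All members are accounted for, and fold changes are given for called members and for uncalled members sharing a role with them. From each list at most 3 called genes per direction and contrast are named, largest change first, with a mean of at least 5 FPKM in 1 group. Alternatives varied the pseudocount, filter, scaling, threshold, variance model, samples, replicate block and libraries, and voom on recovered reads was added after seeing the data. Some results are not reported here.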

Additional observations from a re-analysis of the deposited data

Results flagged for a closer look

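In NL, where each member was checked for a library far from the other 3, 3 of 40 members were marked because the gap of 1 library to its nearest neighbor exceeded the 95% critical value of Dixon's test, as a share of the range of the group. Chance marks about 1 in 20 groups. Lama4 was low in NL 3, at 0.98 on the deposited log2 scale with 17 reads, with a gap of 0.907 of the range. Lama3 was high in the same library, at 0.97 with 200 reads and a gap of 0.861. Itgb1bp2 had its only NL read in NL 1, which makes the gap 1.0. Groups of 3 were not checked.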

How the results depend on the processing

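Members called higher and lower ranged, when each library was left out in turn, from 7 to 8 and from 5 to 8 in c-MYC versus NL, from 10 to 12 and from 4 to 7 between the tumors, and from 10 to 11 and from 4 to 6 in c-MYC/FOXO1AAA versus NL. With a mean of at least 5 FPKM, where 8 members were tested, 4 rose and 0 fell in c-MYC versus NL, 0 rose and 2 fell between the tumors, and 3 rose and 1 fell in c-MYC/FOXO1AAA versus NL. Of all genes at this filter 25.9% rose and 24.8% fell, 11.1% and 14.5%, and 28.0% and 30.4%, in the order of the contrasts. At an unadjusted p under 0.05 of the same limma treat test at this filter, 1 member was lower in the first contrast and 1 higher in the second. At the usual filter, voom on recovered reads called 6 members lower in the first contrast (23.4% of all genes) and 12 higher in the second (17.2%). A pseudocount of 1 left 4 lower in c-MYC versus NL and 3 lower in c-MYC/FOXO1AAA versus NL (20.8% and 24.5% of all genes). Without a fold threshold 11 were lower in c-MYC versus NL (35.3% of all genes), and at a 2-fold threshold 3 were lower between the tumors (7.86%). In c-MYC/FOXO1AAA versus NL, 16 were higher without the filter (31.2%) and 18 at the same FPKM total (58.0%). With the replicate number as a block the counts were 8 and 5, 12 and 6, and 10 and 5 in the order of the contrasts (all genes: 23.2% and 22.5%, 15.5% and 12%, and 30.0% and 25.7%). Deviations from the group mean correlated at -0.04 to 0.027 for same-numbered libraries and at -0.072 to 0.07 for other pairs. With so few libraries in a group, these correlations cannot decide whether the numbers pair libraries. The block ended the calls of Itga1 (-1.16) and Itgb3 (-1.36) in c-MYC versus NL, Itgal (-1.55) between the tumors and Itga2b (-1.16) in c-MYC/FOXO1AAA versus NL, and added Lamb2 (1.19) between the tumors. At the same FPKM total the sign turned in c-MYC versus NL for Itga4 (0.56), Itgav (0.11), Itgb1 (0.68), Itgb5 (0.69) and Lamb1 (0.81), and in c-MYC/FOXO1AAA versus NL for Itga7 (0.31) and Itgb5 (0.59), none of them called in the main test. Lamb1 in c-MYC versus NL lay between -0.51 and 0.22 when a library was left out, and Lama3 between the tumors was -0.48 after quantile normalization. The cause of these changes was not tested. Few reads limit members such as Itga2, with 1 to 24 per library.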

Other observations

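Cd79a, a B cell marker, was at 0 to 0.807 FPKM in NL, 0.112 to 0.15 in c-MYC and 6.89 to 11.8 in c-MYC/FOXO1AAA, where it rose against both groups, while Cd79b was called in no contrast. The other cell type lists are given by their summed FPKM. Neutrophil markers were at 1.06 to 4.77, 1.44 to 2.56 and 0.944 to 15.5 in the order NL, c-MYC and c-MYC/FOXO1AAA, and mesothelial markers at 1.7 to 4.9, 0.146 to 0.395 and 3.66 to 8.1, with Msln and Upk3b lower in c-MYC than in NL and higher with FOXO1AAA. Schwann cell markers were at 0.887 to 2.35, 0.541 to 2.44 and 0.801 to 1.02, and erythroid markers at 19.6 to 27, 0.996 to 1.33 and 1.21 to 2.11, with Alas2 lower in both kinds of tumor.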
